A study of Rattus norvegicus with 12 samples.

Results

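The genes examined here encode the machinery that receives, folds and disposes of secretory proteins in the endoplasmic reticulum (ER) of the β-cell: ER chaperones and their co-chaperones, the calnexin and calreticulin cycle, disulfide-forming enzymes, stress sensors, the translocation channel and ER-associated degradation (ERAD). They were chosen by name, as a list of 38 genes set against the gene names of the count table. All 38 were found among 28727 named rows, and 37 of them were among the 14669 genes that passed the filter on low counts. The gene that did not pass was Derl3, a Derlin of the retrotranslocation pore, with 1 count in 1 of the 12 libraries, so no level or change is given for it.

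RNA was sequenced from INS-1 832/13 cells, an insulin-secreting rat insulinoma line, kept for 48 h in 2 mM or in 11 mM glucose. The cells had been transduced with a control adenovirus expressing GFP or with an adenovirus expressing mCherry-tagged mouse ChREBPβ, the short, constitutively active form of the glucose-sensing transcription factor ChREBP (gene Mlxipl). This gave 4 groups of 3 libraries each: GFP in 2 mM glucose, GFP in 11 mM glucose, ChREBPβ in 2 mM glucose and ChREBPβ in 11 mM glucose. All groups carried an adenovirus, all cells came from the same line, and the study describes its RNA-seq values as coming from independent experiments, although the labels do not say which libraries were prepared together. The p-values measure the spread between the libraries of a group. Counts per library summed to between 25754488 and 60531215, and the libraries of a group differed from each other beyond sampling noise. RNA was amplified before sequencing, so reads are not independent molecules and low counts carry counting error at the least.

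The labels were checked first on the overexpressed factor and on its targets. The rat gene Mlxipl was lower with ChREBPβ in 2 mM glucose (log2 fold change -0.33, standard error (SE) of the log2 value 0.05, edgeR adjusted p = 2.03e-05) and changed by -0.14 in 11 mM. A separate entry named ChREBPb, picked after the table was seen, differed by 0.21 and 0.37. The virus carries a mouse cDNA and what the ChREBPb entry counts is not stated, so neither was taken as a measure of the transgene. The ChREBP targets Txnip (log2 fold change 4.12 and 0.93) and Pklr (1.69 and 1.08) were higher in the libraries labelled ChREBPβ at both glucose concentrations. The cell type label was checked on 14 β-cell markers, all above 0 in every group, while 13 markers of other pancreatic and stromal cells summed to between 0.375 and 1.83 CPM (library-scaled counts, the unit of all levels here) in any library.

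As background, newly made proinsulin enters the ER through the Sec61 channel, is bound by the Hsp70 chaperone BiP (Hspa5) and the Hsp90 chaperone Grp94 (Hsp90b1), and is oxidised by protein disulfide isomerases that Ero1 enzymes recharge. Proteins that fail to fold are trimmed by the EDEM proteins, recognised by lectins such as Os9, and passed by Sel1l and the ubiquitin ligase Hrd1 (Syvn1) to the cytosol for degradation. The sensors IRE1α (Ern1), ATF6 and PERK raise or lower this capacity, IRE1α by splicing Xbp1 mRNA, which a count per gene does not show. In β-cells this system carries an unusually large load, because preproinsulin makes up so much of what they translate.

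ATF6 and XBP1 act on these genes through short promoter elements, and some promoters of the list are printed to show them. RefSeq promoter windows of 300 bases (250 before the annotated start and 50 after, assembly GRCr8) matched 30 of the 38 genes by symbol. The ER stress response element (ERSE) was searched on both strands as CCAAT, 9 bases of any kind and CCACG. It was present in 9 of these 30 windows (30.0%) and in 21 of all 27457 windows (0.0765%). ERSE-II, written ATTGG, any base and CCACG, was present in 3 of the 30 windows and in 0.0546% of all windows. The element TGACGTGG, named UPRE here, was present in 2 of the 30, Dnajc10 and Hyou1, and in 0.637% of all, and in Hyou1 it overlaps an ERSE-II. A match is a description of the sequence and not a site shown to be bound. The ERSE matches were, in the strand on which the element reads CCAAT to CCACG, with the fixed bases in capitals:
Hspa5: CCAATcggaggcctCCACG
Hsp90b1, far match: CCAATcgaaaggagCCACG
Hsp90b1, near match: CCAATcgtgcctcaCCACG
Creld2: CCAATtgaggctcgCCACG
Canx: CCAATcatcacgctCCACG
Xbp1: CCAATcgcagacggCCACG
Dnajc3: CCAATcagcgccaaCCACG
Ero1b: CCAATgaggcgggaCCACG
Calr: CCAATcagggtcgaCCACG
Derl3: CCAATaaggaagtcCCACG

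The ERSE of Hspa5 lies at bases -43 to -25, counted back from the annotated start, and that of Xbp1 at -65 to -47. The ERSE-II matches were those of Hyou1 at -188 to -178 and at -88 to -78, of Dnajb11 at -10 to 0 and of Herpud1 at -124 to -114. The carbohydrate response element, the motif bound by ChREBP, was searched as CAYGNG, 5 bases of any kind and CNCRTG. Here Y is C or T, R is A or G and N is any base. The element was found in none of the 30 windows and in 0.0801% of all windows. The 250 bases before the start are shown for the chaperone genes Hspa5 and Hyou1, for Ero1b and Sdf2l1, whose counts fell most, and for Herpud1, which moved the opposite way. Each is printed 5′ to 3′ along the gene, and capitals mark ERSE, ERSE-II and UPRE matches on either strand. The windows of Ero1b and Herpud1 lie within the annotated span of their genes.
Hspa5, GRCr8 chr3:38452766-38453015, plus strand: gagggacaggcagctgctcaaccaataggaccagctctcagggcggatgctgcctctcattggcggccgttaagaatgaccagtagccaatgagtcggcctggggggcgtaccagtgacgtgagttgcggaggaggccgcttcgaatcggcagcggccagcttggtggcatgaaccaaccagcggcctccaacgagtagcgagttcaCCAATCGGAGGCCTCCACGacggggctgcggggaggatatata
Hyou1, GRCr8 chr8:53602632-53602881, plus strand: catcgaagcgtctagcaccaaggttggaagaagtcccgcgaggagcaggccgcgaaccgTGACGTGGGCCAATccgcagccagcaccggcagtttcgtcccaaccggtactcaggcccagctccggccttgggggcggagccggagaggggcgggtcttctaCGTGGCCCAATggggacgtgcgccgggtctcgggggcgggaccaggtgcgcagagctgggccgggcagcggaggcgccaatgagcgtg
Ero1b, GRCr8 chr17:92941432-92941681, plus strand: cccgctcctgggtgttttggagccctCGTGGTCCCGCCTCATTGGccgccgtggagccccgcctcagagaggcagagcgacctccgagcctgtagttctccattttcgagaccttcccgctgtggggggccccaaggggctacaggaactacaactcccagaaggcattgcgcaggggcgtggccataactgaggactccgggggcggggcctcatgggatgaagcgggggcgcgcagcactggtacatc
Sdf2l1, GRCr8 chr11:97376628-97376877, plus strand: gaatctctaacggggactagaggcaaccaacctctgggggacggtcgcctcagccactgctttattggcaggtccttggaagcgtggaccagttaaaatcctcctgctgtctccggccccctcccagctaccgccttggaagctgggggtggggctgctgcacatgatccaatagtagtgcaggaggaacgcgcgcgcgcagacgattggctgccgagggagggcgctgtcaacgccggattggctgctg
Herpud1, GRCr8 chr19:10614708-10614957, minus strand: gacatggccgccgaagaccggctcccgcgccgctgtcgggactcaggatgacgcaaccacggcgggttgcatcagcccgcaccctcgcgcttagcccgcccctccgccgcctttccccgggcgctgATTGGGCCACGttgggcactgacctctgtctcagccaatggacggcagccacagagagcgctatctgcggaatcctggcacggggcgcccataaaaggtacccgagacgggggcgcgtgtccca

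The main question was how ChREBPβ moved this machinery at each glucose concentration. Most of the genes that moved were lower with ChREBPβ. In 2 mM glucose 19 of the 37 tested genes fell and 2 rose, and in 11 mM glucose 18 fell and 2 rose, where a gene is said to rise or fall when its adjusted p in edgeR's quasi-likelihood test is under 0.05 and it changed at least 1.2-fold. The falls were led by Ero1b, the β-cell-rich oxidase that recharges protein disulfide isomerases, and Sdf2l1, a component of BiP complexes. The rises were those of Herpud1, which ties ERAD factors together at the membrane, and of the sensor Ern1.

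These counts are read against the table as a whole, since ChREBPβ changed many genes. In 2 mM glucose 23.2% of all tested genes fell and 21% rose, and of the 37 genes 51.4% fell and 5.41% rose. In 11 mM glucose 19.1% of all tested genes fell and 14.3% rose, and of the 37 genes 48.6% fell and 5.41% rose. The share that fell was thus above the table's and the share that rose was below it at both concentrations. The list was chosen with earlier results of these data known, so this comparison is a description and not an independent test. The median log2 fold change of the 37 genes was -0.29 in 2 mM and -0.26 in 11 mM, against -0.02 and -0.02 over all tested genes. Values were negative for 30 of the 37 genes in 2 mM and for 33 in 11 mM, against 7557 and 7686 of the 14669 tested genes. The ChREBPβ and GFP libraries did not overlap for 29 of the 37 genes (78.4%) at each concentration, against 63.3% and 56.1% of all tested genes. With scaling by plain library totals and no TMM factors, the median over all genes moved to -0.12 and -0.10 and that of the 37 genes to -0.39 and -0.35, so the genes lay below the table under both scalings.

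**Figure D1:**
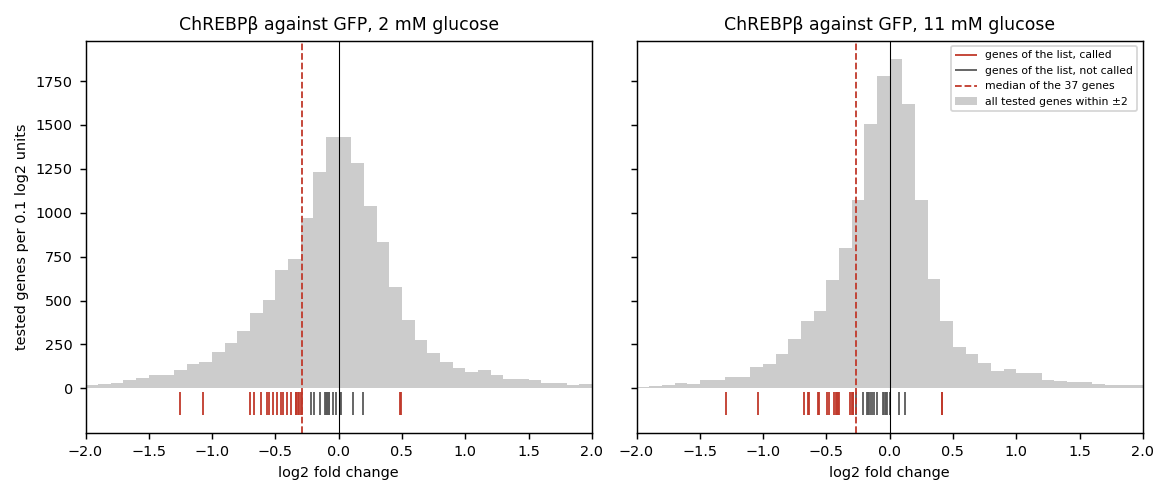
Number of tested genes (y axis) by log2 fold change of ChREBPβ against GFP (x axis, bins of 0.1) at each glucose concentration, with the 37 genes of the list as ticks below 0, red where they passed the test, and their median as a dashed line. The grey distributions centre near 0, while the dashed lines lie at -0.29 and -0.26 and the ticks reach further to the left than to the right.

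The comparisons at 2 and 11 mM share no library, so each is a separate measurement of the ChREBPβ effect. They gave the same calls for nearly all genes of the list. All 18 genes that fell in 11 mM also fell in 2 mM, which is 94.7% of the 19 that fell in 2 mM, and the exception was Sec61b. Among all tested genes 84.9% of those that fell in 11 mM fell in 2 mM, and 70.0% of those that fell in 2 mM fell in 11 mM. Herpud1 and Ern1 rose at both concentrations, and no gene of the list was called in opposite directions.

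**Figure D2:**
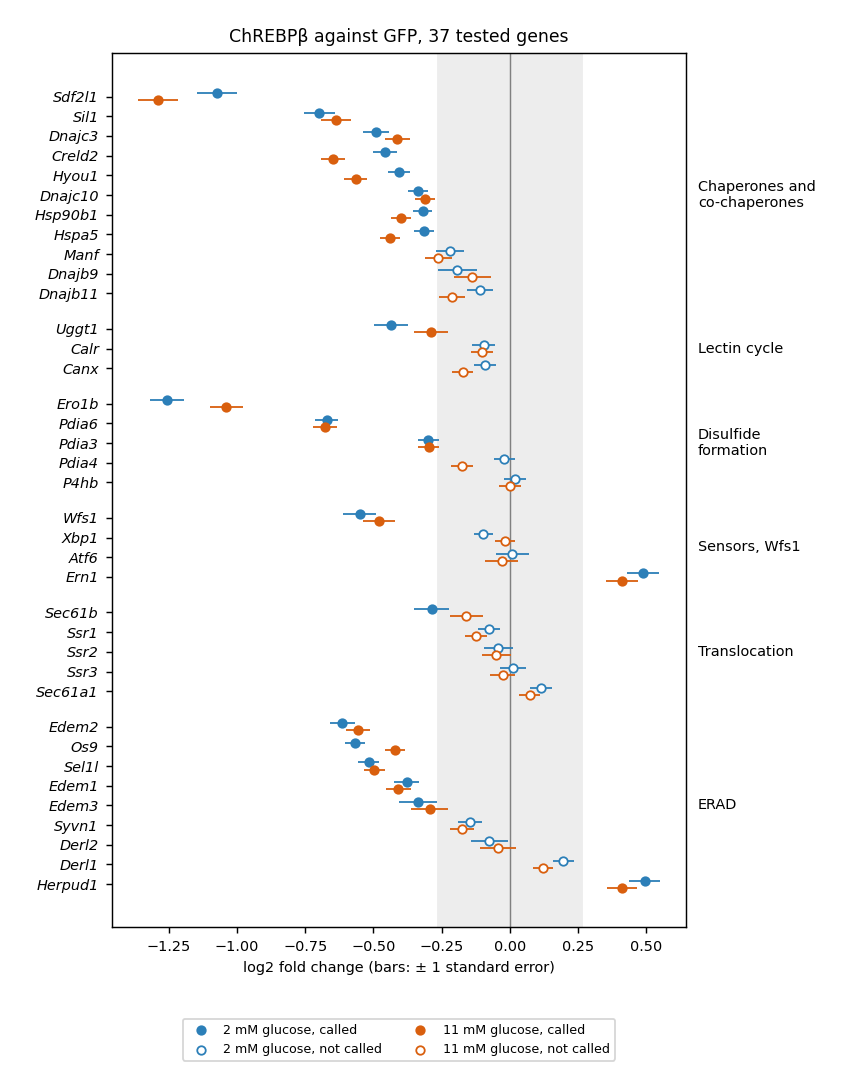
Log2 fold change of ChREBPβ against GFP (x axis) with its standard error for each tested gene (y axis), grouped by role, in 2 mM (blue) and 11 mM glucose (orange). Filled points passed the test and the grey band spans changes under 1.2-fold. Points of both colours lie close together for each gene, from Ero1b at -1.26 to Herpud1 at 0.49 in 2 mM.

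The β-cell markers moved in the same libraries. Of the 14, 12 fell and 1 rose in 2 mM and 11 fell and 1 rose in 11 mM, with medians of -1.11 and -0.84. Their summed level was 26495 to 29587 CPM with GFP and 14023 to 14391 CPM with ChREBPβ in 2 mM, and 21292 to 23081 CPM against 13048 to 13588 CPM in 11 mM, with no overlap between viruses. The insulin genes, whose product is the chief client of this ER machinery, were among them, with log2 fold changes of -1.44 and -1.29 for Ins1 and -1.42 and -1.15 for Ins2. The part of this change in the results on the ER genes was not tested. In these bulk samples fewer cells of a kind and less RNA per cell cannot be told apart.

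Most chaperones and co-chaperones fell (72.7% at each concentration, against 23.2% of all tested genes in 2 mM and 19.1% in 11 mM). All 11 had negative log2 fold changes at both concentrations, and the same 8 fell at both: Hspa5, Hsp90b1, Hyou1, Sil1, Dnajc3, Dnajc10, Sdf2l1 and Creld2. The group medians were -0.34 in 2 mM and -0.41 in 11 mM. Its summed level went from 4691 CPM ± 52.1 (SD, n = 3) with GFP to 3735 CPM ± 66.8 with ChREBPβ in 2 mM, and from 4922 CPM ± 94.1 to 3678 CPM ± 42.5 in 11 mM. The libraries of the viruses did not overlap in this sum.

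Hspa5 encodes BiP, the abundant Hsp70 of the ER lumen whose release from the sensors helps to start the unfolded protein response. It stood at 1351, 1383 and 1429.5 CPM with GFP in 2 mM and at 1493, 1445 and 1517 CPM with GFP in 11 mM. With ChREBPβ it stood at 1087, 1149 and 1111 CPM in 2 mM and at 1091, 1087 and 1107 CPM in 11 mM. All 6 ChREBPβ libraries were thus below all 6 GFP libraries. The log2 fold change was -0.32 in 2 mM (SE 0.04, edgeR adjusted p = 4.85e-07) and -0.44 in 11 mM (SE 0.04, edgeR adjusted p = 6.34e-09). Hspa5 carries the ERSE shown above next to its start. Hsp90b1, the ER Hsp90 with a pair of ERSE matches, fell by 0.32 and 0.40 on the log2 scale. In a test that asked for a change beyond 1.2-fold, the calls for Hspa5 and Hsp90b1 in 2 mM were lost (edgeR adjusted p = 0.0808 and 0.0570).

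Sdf2l1, which works with BiP and ERdj3 to keep misfolded clients soluble, had 4 separate levels. It was at 43.1, 48.3 and 45.3 CPM with GFP in 2 mM and at 37.1, 29.4 and 36.1 CPM with GFP in 11 mM. With ChREBPβ it was at 21.6, 21.5 and 21.9 CPM in 2 mM and at 13.8, 14.0 and 14.3 CPM in 11 mM. No libraries of different groups overlapped, and the ChREBPβ level in 2 mM was below the GFP level in 11 mM. ChREBPβ lowered it to 0.476 of the GFP level in 2 mM (log2 fold change -1.07, SE 0.07, edgeR adjusted p = 1.51e-10) and to 0.409 in 11 mM (-1.29, SE 0.07, edgeR adjusted p = 1.46e-11). Its printed promoter held no ERSE, ERSE-II or UPRE match.

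Sil1, the nucleotide exchange factor that frees BiP from its clients, was at 50.4, 53.4 and 56.0 CPM with GFP in 2 mM and at 48.2, 47.0 and 44.9 CPM with GFP in 11 mM. In the ChREBPβ libraries it was at 30.3, 33.4 and 34.4 CPM in 2 mM and at 29.4, 30.6 and 30.1 CPM in 11 mM. The ChREBPβ libraries were all below the GFP libraries. The log2 fold changes were -0.70 (SE 0.06, edgeR adjusted p = 1.88e-09) and -0.64 (SE 0.06, edgeR adjusted p = 8.16e-09). Hyou1, the large Grp170 chaperone that also exchanges nucleotide on BiP, fell by 0.41 and 0.57 on the log2 scale.

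The J-domain co-chaperones that hand clients to BiP did not all pass the test. Dnajc3 (p58IPK) fell by 0.49 in 2 mM and by 0.41 in 11 mM on the log2 scale, and Dnajc10 (ERdj5), a disulfide reductase used in ERAD, fell by 0.34 and 0.31. Dnajb9 (ERdj4) had log2 fold changes of -0.19 and -0.14 and Dnajb11 (ERdj3) of -0.11 and -0.21, neither of them called. Creld2, a secreted ER stress protein with an ERSE match, fell by 0.46 and 0.65. Manf, a secreted trophic factor that binds BiP, had -0.22 and -0.26, the latter within rounding of the 1.2-fold minimum. Manf in 11 mM, Dnajb9 in 2 mM and Dnajb11 in 11 mM were called under some other settings, library totals among them, and when single libraries of the comparison were left out. Without GFP replicate c in 2 mM the Dnajb9 value was -0.29 and called, without GFP replicate b in 11 mM that of Dnajb11 was -0.27 and called, and Manf in 11 mM was called at -0.31 without ChREBPβ replicate c and at -0.30 without GFP replicate b.

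**Figure D3:**
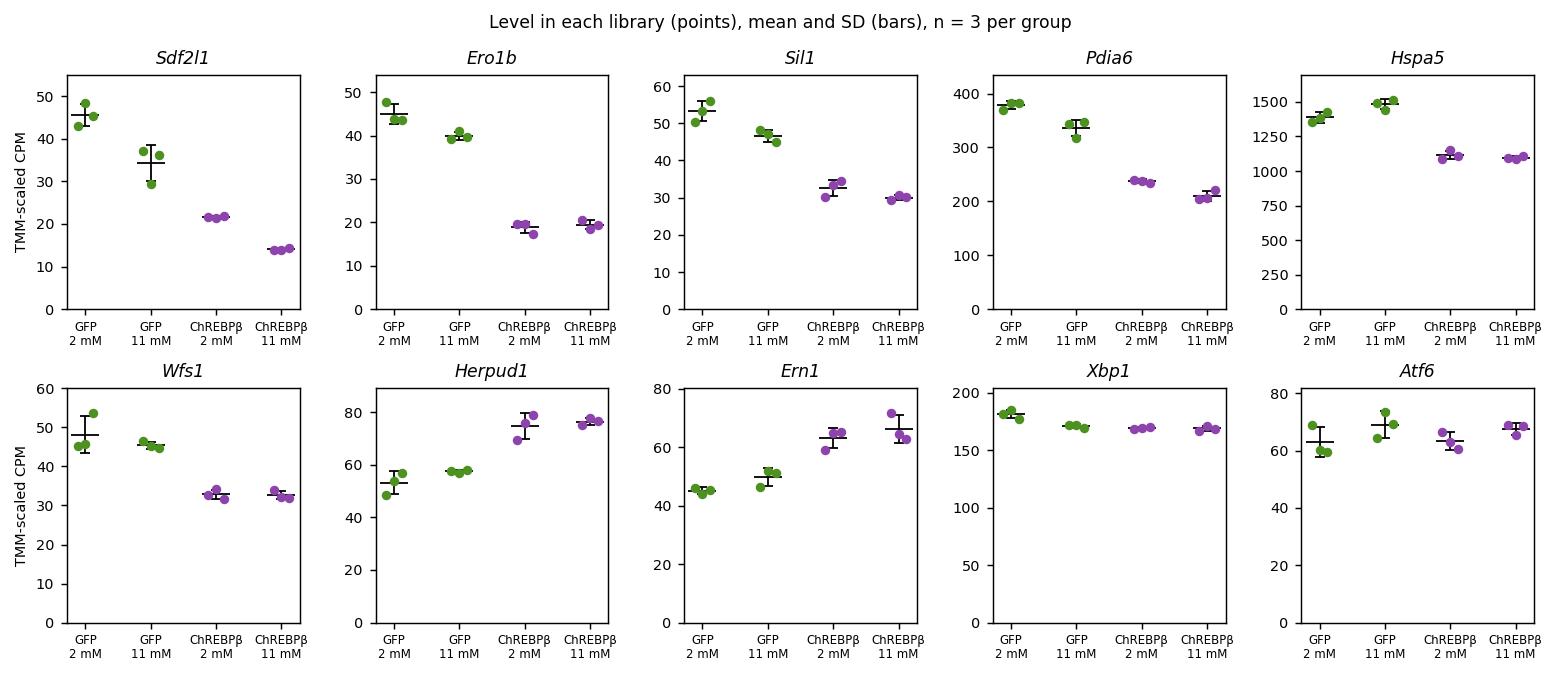
TMM-scaled CPM (y axis, from 0) of 10 genes in each of the 12 libraries (points), by virus and glucose (x axis), with the group mean and SD, n = 3. Sdf2l1, Ero1b, Sil1, Pdia6, Hspa5 and Wfs1 are lower with ChREBPβ (purple) than with GFP (green) in every library, Herpud1 and Ern1 are higher, and Atf6 overlaps between viruses.

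In the disulfide group, 3 of 5 genes (60%) fell at both concentrations, against 23.2% of all tested genes in 2 mM and 19.1% in 11 mM. Ero1b, the Ero1 enzyme most typical of the endocrine pancreas, was at 47.6, 43.8 and 43.6 CPM with GFP in 2 mM and at 39.3, 41.0 and 39.6 CPM with GFP in 11 mM. With ChREBPβ it was at 19.6, 19.6 and 17.4 CPM in 2 mM and at 20.4, 18.4 and 19.5 CPM in 11 mM. The highest ChREBPβ library was well below the lowest GFP library. Ero1b fell to 0.418 of the GFP level in 2 mM (log2 fold change -1.26, SE 0.06, edgeR adjusted p = 1.18e-12) and to 0.487 in 11 mM (-1.04, SE 0.06, edgeR adjusted p = 2.03e-11). Ero1b and Sdf2l1 were the genes of the list that also passed a 2-fold minimum, at both concentrations. At that minimum 1456 of the 14669 tested genes were called in 2 mM and 992 in 11 mM. The 2 of 37 genes are thus no excess in the list.

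Pdia6, a disulfide isomerase that acts with BiP and on IRE1α, was at 369, 383 and 383 CPM with GFP in 2 mM and at 343, 318 and 347 CPM with GFP in 11 mM. Under ChREBPβ it was at 241, 238 and 234 CPM in 2 mM and at 204, 206 and 221 CPM in 11 mM. Again no ChREBPβ library reached a GFP library. The log2 fold changes were -0.67 (SE 0.04, edgeR adjusted p = 5.75e-11) and -0.68 (SE 0.04, edgeR adjusted p = 6.73e-11). Pdia3, the isomerase of the glycoprotein cycle, fell by 0.30 at both concentrations on the log2 scale, and lost its call at both in the test against 1.2-fold. Pdia4 had values of -0.02 and -0.18, and P4hb, the classical protein disulfide isomerase, of 0.02 and 0.00, its libraries overlapping between viruses at both. The 5 genes thus spanned log2 fold changes from -1.26 to 0.02 in 2 mM.

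In the lectin cycle, which holds monoglucosylated glycoproteins until they fold, Uggt1 fell and the chaperones did not pass the test. That is 1 of 3 genes (33.3%) at each concentration, against 23.2% of all tested genes in 2 mM and 19.1% in 11 mM. Uggt1, the enzyme that re-glucosylates misfolded glycoproteins, had log2 fold changes of -0.44 in 2 mM (SE 0.06, edgeR adjusted p = 5.73e-06) and -0.29 in 11 mM (SE 0.06, edgeR adjusted p = 0.000670). The call in 11 mM was lost without GFP replicate b (-0.21) or without ChREBPβ replicate c (-0.25). Calr had values of -0.10 and -0.10 and Canx of -0.09 and -0.17, both with an ERSE match in their promoters.

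Of the 4 genes in the group of sensors and Wfs1, 1 rose (25%) and 1 fell (25%) at both concentrations. Over all tested genes 21% rose and 23.2% fell in 2 mM, and 14.3% rose and 19.1% fell in 11 mM. So short a list cannot be set apart from the table. Ern1, which encodes the kinase and nuclease IRE1α, was at 46.1, 43.9 and 45.4 CPM with GFP in 2 mM and at 46.4, 51.9 and 51.3 CPM with GFP in 11 mM. With ChREBPβ it was at 59.1, 65.0 and 65.2 CPM in 2 mM and at 71.6, 64.5 and 62.7 CPM in 11 mM. Every ChREBPβ library was above every GFP library. The log2 fold changes were 0.49 (SE 0.06, edgeR adjusted p = 8.71e-07) and 0.41 (SE 0.06, edgeR adjusted p = 7.51e-06), or 1.40-fold and 1.33-fold.

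Xbp1 and Atf6, the transcription factors of the response, were not called. Xbp1 mRNA, the substrate of IRE1α, was at 181.9, 184.7 and 177.7 CPM with GFP in 2 mM and at 172.4, 172.5 and 169.1 CPM with GFP in 11 mM. In the ChREBPβ libraries it was at 168.5, 169.7 and 170.7 CPM in 2 mM and at 166.9, 171.6 and 168.8 CPM in 11 mM. The libraries did not overlap between viruses in 2 mM, where the log2 fold change was -0.10 (edgeR adjusted p = 0.0277, under the 1.2-fold minimum), and they did in 11 mM, where it was -0.02. Spliced and unspliced forms are counted together in these values. Atf6 was at 69.0, 60.2 and 59.7 CPM with GFP in 2 mM, at 64.4, 73.6 and 69.4 CPM with GFP in 11 mM, at 66.6, 63.0 and 60.6 CPM with ChREBPβ in 2 mM and at 68.9, 65.3 and 68.6 CPM with ChREBPβ in 11 mM. The groups overlapped, with log2 fold changes of 0.01 and -0.03 (SE 0.06 for each).

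Wfs1, an ER membrane protein of the β-cell that restrains ATF6 and whose loss causes Wolfram syndrome, fell. It was at 45.2, 45.7 and 53.6 CPM with GFP in 2 mM and at 46.5, 45.2 and 44.8 CPM with GFP in 11 mM. With ChREBPβ it was at 32.7, 34.1 and 31.8 CPM in 2 mM and at 33.9, 32.1 and 31.9 CPM in 11 mM. The viruses did not overlap. The log2 fold changes were -0.55 (SE 0.06, edgeR adjusted p = 2.06e-07) and -0.48 (SE 0.06, edgeR adjusted p = 1.36e-06).

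In translocation 1 of 5 genes fell in 2 mM (20%) and 0 in 11 mM, and 0 rose. Falls over all tested genes were 23.2% and 19.1%. Sec61b, the small β subunit of the channel, fell in 2 mM (log2 fold change -0.29, SE 0.06, edgeR adjusted p = 0.000574) and had -0.16 in 11 mM. Its call was lost without GFP replicate c in 2 mM (-0.24). Sec61a1, the pore itself, had values of 0.11 and 0.07, Ssr1 of -0.08 and -0.12, Ssr2 of -0.04 and -0.05 and Ssr3 of 0.01 and -0.03. The summed level of the group was 1508 CPM ± 40.9 (SD, n = 3) with GFP and 1494 CPM ± 14.4 with ChREBPβ in 2 mM, and 1641 CPM ± 46.3 against 1607 CPM ± 44.9 in 11 mM, a difference within the spread of the libraries.

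In ERAD, 5 of the 9 tested genes fell (55.6%) and 1 rose, the same genes at both concentrations. Falls over all tested genes were 23.2% in 2 mM and 19.1% in 11 mM. A wider ERAD list, given below, fell near the table's share (22.2%). The ERAD genes of this list that fell take part in the recognition of misfolded glycoproteins and in handing them to the ligase. The mannose-trimming factors Edem1, Edem2 and Edem3 fell by 0.38, 0.61 and 0.34 in 2 mM and by 0.41, 0.56 and 0.29 in 11 mM on the log2 scale. The lectin Os9 fell by 0.57 and 0.42, and Sel1l, the adaptor and stabiliser of Hrd1, by 0.52 and 0.50. Edem3 was the least certain of these, since its call was lost in 2 mM without GFP replicate a (-0.25) and in 11 mM without ChREBPβ replicate c (-0.26). Syvn1, the ligase Hrd1, had -0.15 and -0.18, Derl1 0.20 and 0.12, and Derl2 -0.08 and -0.04, none of them called.

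Herpud1, a membrane protein that gathers Hrd1 complexes and is induced by ER stress, rose. It was at 48.4, 53.8 and 57.0 CPM with GFP in 2 mM and at 57.5, 56.9 and 58.0 CPM with GFP in 11 mM. Under ChREBPβ it was at 69.3, 75.7 and 78.9 CPM in 2 mM and at 74.9, 77.8 and 76.5 CPM in 11 mM. All ChREBPβ libraries were above all GFP libraries. The log2 fold changes were 0.49 (SE 0.06, edgeR adjusted p = 3.58e-07) and 0.41 (SE 0.06, edgeR adjusted p = 4.23e-06), or 1.41-fold and 1.33-fold. Its promoter carries the ERSE-II shown above, as does that of Hyou1, which fell.

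**Figure D4:**
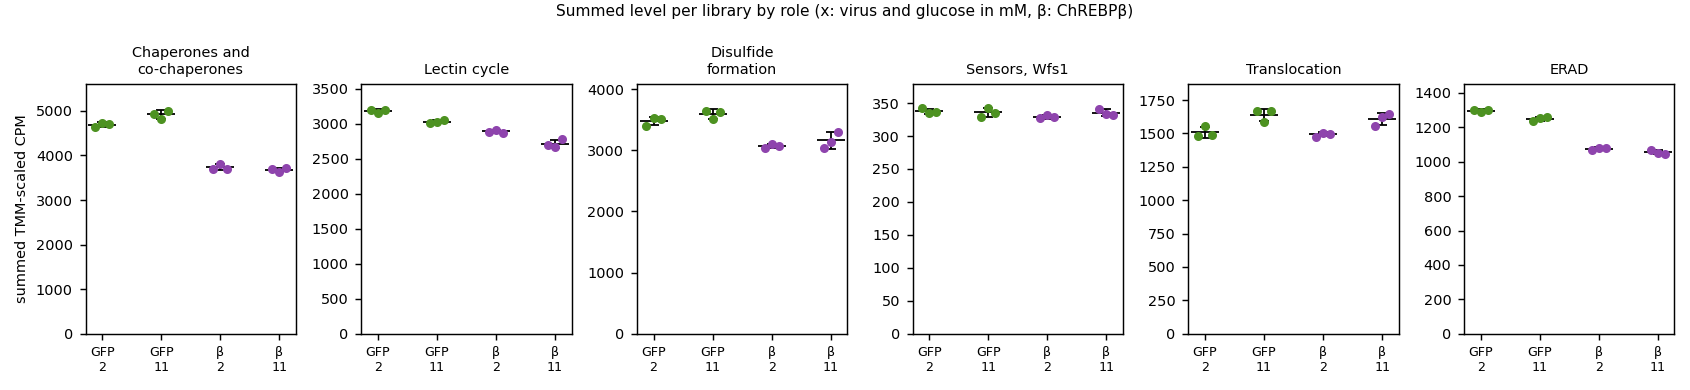
Summed TMM-scaled CPM (y axis, from 0) of the genes of each role in the 12 libraries (points), by virus and glucose (x axis), with mean and SD, n = 3. Chaperones, the lectin cycle, disulfide formation and ERAD are lower in every ChREBPβ library than in the GFP libraries at the same glucose, while translocation overlaps at both concentrations and the sensors overlap in 11 mM.

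Summed over the 37 tested genes, the level in 2 mM was 14500 CPM ± 123 (SD, n = 3) with GFP and 12603 CPM ± 133 with ChREBPβ. In 11 mM the sum was 14775 CPM ± 216 with GFP and 12555 CPM ± 233 with ChREBPβ. The sum is dominated by the most abundant genes, so it describes the RNA and not the typical gene. It was lower with ChREBPβ in every library at both glucose concentrations. ERAD alone went from 1297 CPM ± 7.50 to 1076 CPM ± 8.56 in 2 mM and from 1249 CPM ± 12.8 to 1055 CPM ± 11.3 in 11 mM.

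The calls were also counted by promoter element. Of 8 tested genes with an ERSE match, 5 fell and 0 rose at each concentration, with medians of -0.32 and -0.41 (log2). Of 21 with a window and no ERSE match, 11 fell and 1 rose in 2 mM and 10 fell and 1 rose in 11 mM, with medians of -0.29 and -0.21. Over all tested genes 23.2% fell in 2 mM and 19.1% in 11 mM. With ERSE-II and UPRE counted as well, 7 of 12 genes with a match fell and 1 rose at each concentration. Of 17 with a window and no such match, 9 fell in 2 mM and 8 in 11 mM, and 0 rose. Neither difference was tested, and 8 genes of the list had no window.

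The other genes of the pathway were taken from lists written by function. Of 12 transducers and targets of the PERK, ATF6-family and integrated stress response branches, 4 rose (33.3%) and 1 fell in 2 mM. In 11 mM 5 rose (41.7%) and 0 fell. Rises over all tested genes were 21% and 14.3%. The list is short, and its difference from the table was not tested. Chac1, a glutathione-degrading enzyme induced by ATF4, had the largest rise of the pathway lists, from 2.09 CPM ± 0.756 (SD, n = 3) to 4.56 CPM ± 0.644 in 2 mM and from 2.28 CPM ± 0.312 to 5.01 CPM ± 0.958 in 11 mM. Its log2 fold change was 1.13 at both (edgeR adjusted p = 0.000102 and 5.67e-05). The others that rose are named with their values known: Eif2ak3, which encodes PERK (0.75 and 0.61), its effector Atf4 (0.59 and 0.48), the ATF4 target Trib3 (0.71 and 0.86) and, in 11 mM, the phosphatase subunit Ppp1r15a (0.27). Ddit3, which encodes CHOP, had 0.10 and -0.09 and was not called. Creb3l2 fell by 0.28 in 2 mM.

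Of 18 other tested ERAD genes, 2 rose (11.1%) and 4 fell (22.2%) at each concentration, against the shares of the table (21% higher and 23.2% lower in 2 mM, 14.3% and 19.1% in 11 mM). Erlec1, an Os9-like lectin of the ER lumen, had the largest fall of the pathway lists in 11 mM, from 159.7 CPM ± 1.74 (SD, n = 3) to 106 CPM ± 4.28 (log2 fold change -0.59, edgeR adjusted p = 1.23e-09), and fell by 0.71 in 2 mM. The ubiquitin-conjugating enzyme Ube2g2 (0.66 and 0.63) and the ligase Rnf5 (0.50 and 0.43), named after their values were seen, rose. Of 16 other tested translocation and signal peptidase genes, 2 fell in 2 mM (12.5%), 1 fell in 11 mM (6.25%) and 0 rose, against falls of 23.2% and 19.1% of all tested genes. The signal peptidase subunit Spcs3, also named with its value known, fell by 0.54 and 0.55 on the log2 scale.

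The second question was what glucose did to these genes with each virus. Changes from 2 to 11 mM were small. With GFP 1 of the 37 genes fell and 0 rose, against 10% and 10.2% of all tested genes, and with ChREBPβ 1 fell and 0 rose, against 2.88% and 0.988%. The medians were 0.01 and -0.01. Both comparisons share libraries with the ChREBPβ comparisons above.

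The gene that fell with glucose was Sdf2l1 under either virus. Its log2 fold change from 2 to 11 mM was -0.41 with GFP (SE 0.07, edgeR adjusted p = 0.000140) and -0.63 with ChREBPβ (SE 0.07, edgeR adjusted p = 2.34e-05), in the library values given above. In the test against a 1.2-fold change the call with GFP was lost (edgeR adjusted p = 0.0747). Others had smaller values with GFP, such as Os9 at -0.25, Sil1 at -0.19, Calr at -0.18, Sec61a1 at 0.18 and Ssr1 at 0.17, none of which reached the minimum fold. Hspa5 had 0.10 with GFP and -0.03 with ChREBPβ. Translocation was the group with the highest median, 0.13 with either virus, and 4 of its 5 genes had positive values in both.

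**Figure D5:**
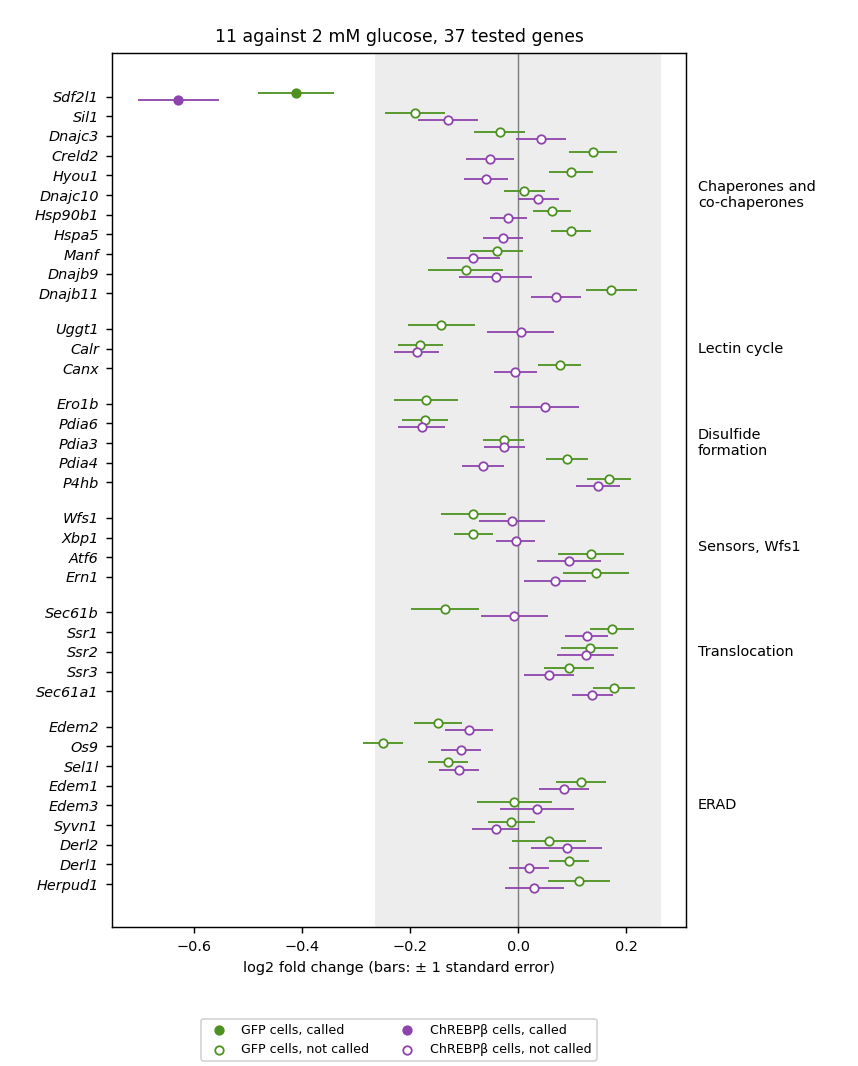
Log2 fold change from 2 to 11 mM glucose (x axis) with its standard error for each tested gene (y axis), grouped by role, with GFP (green) and with ChREBPβ (purple). Filled points passed the test and the grey band spans changes under 1.2-fold. Sdf2l1, at -0.41 and -0.63, is the gene outside the band.

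Whether the ChREBPβ effect differed between 11 and 2 mM was tested as an interaction. None of the 37 genes passed the edgeR test, against 1.56% of all tested genes with a higher and 4.74% with a lower value. At an unadjusted p under 0.05 there were 7 of the 37, against 3070 of the 14669 tested genes, which is no excess in the list, and DESeq2 and edgeR's likelihood ratio test called 0 each. The 7 were Hspa5 (-0.12), Hyou1 (-0.16), Sdf2l1 (-0.22), Creld2 (-0.19), Pdia4 (-0.16), Ero1b (0.22) and Os9 (0.15). Negative values mark a larger fall with ChREBPβ in 11 mM and positive ones a smaller fall. Without GFP replicate b in 11 mM, the lowest of its group for Sdf2l1, that gene was called (-0.31, edgeR adjusted p = 0.0181).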

How the data were processed

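RNA-seq was performed on 12 libraries of INS-1 832/13 cells. After amplification and paired-end sequencing the authors deposited raw counts per gene, without normalization, and the submitters' processing notes name Rnor_6.0 as the build. The aligner, counting tool and strand setting are not given in the sources used here, so overlapping or antisense genes and near-identical copies cannot be separated. The deposited table also holds the authors' group means, entered as signal values, which equal the means of the 3 counts in all 28728 rows (tolerance 0.001) and were not used further. Columns of other samples numbered 0.

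The entry without a name (at most 0.00601% of a library) was left out. Genes were filtered with filterByExpr and scaled by TMM (factors 0.958 to 1.06) in edgeR 4.0.16 under R 4.3.3. Levels are TMM-scaled CPM and are compared within a gene only. All 12 libraries entered 1 quasi-likelihood fit on the group, contrasts were adjusted by Benjamini-Hochberg over the 14669 genes, and a call needed an adjusted p under 0.05 and the 1.2-fold change that the methods name. SDs and standard errors cover the libraries. The scripts were tested on simulated data. Alternatives were DESeq2 1.42.0, other factors, filters and thresholds, a replicate block and leaving out each library.

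Genes given in every library were, by rule, those with the 3 largest rises and falls among the calls of a comparison, plus Hspa5, Xbp1, Ern1, Atf6 and Wfs1, and in the pathway lists the largest rise and fall. The members and lists were chosen with earlier results of these data known, among them an unfolded protein response list that shares genes with this one. Promoters are RefSeq's for GRCr8, a different build from that of the counts, and 8 genes had no window.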

Additional observations from a re-analysis of the deposited data

How the results depend on the processing

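The changes with ChREBPβ kept their direction in all 23 alternative settings for every gene called. Of the 21 genes called in 2 mM and the 20 in 11 mM, 16 and 16 kept their call in every setting other than the 2-fold minimum. With library totals the medians were -0.386 in 2 mM and -0.347 in 11 mM, with 23 and 22 genes called, the share of rises among all calls went from 47.5% to 33.2% in 2 mM and from 42.9% to 29.3% in 11 mM, and 2 genes were called for glucose with GFP, Os9 being added. The cause was not tested. Over all tested genes library totals called 6617 in 2 mM, 5230 in 11 mM and 2968 for glucose with GFP. With no minimum fold change, 14 of the 37 genes were called for glucose with GFP, near the table's share (5030 of 14669 tested genes). With ChREBPβ 5 were called, against 1100 over all tested genes. With the test against a 1.2-fold change 16 were called in each ChREBPβ comparison and 0 for glucose with GFP. Over all tested genes that test called 4522 in 2 mM, 2963 in 11 mM and 1113 for glucose with GFP. With a minimum of 2-fold, 2 genes (Sdf2l1 and Ero1b) were called in 2 mM, 2 in 11 mM and 0 for glucose with either virus. Over all tested genes that minimum called 1456 in 2 mM and 992 in 11 mM. For glucose it called 294 with GFP and 28 with ChREBPβ. Leaving out each library in turn gave medians from -0.2955 to -0.25012 in 2 mM (highest without GFP replicate a in 2 mM), from -0.26593 to -0.22398 in 11 mM (highest without GFP replicate a in 11 mM) and from -0.00071 to 0.05438 for glucose with GFP (highest without GFP replicate a in 2 mM), and 0 to 1 genes called for the interaction. DESeq2 called 21, 20, 1, 1 and 0 genes in the 5 comparisons, against 6454, 4842, 2954, 616 and 1000 over all tested genes. Same-lettered libraries of different groups did not deviate together (correlations from -0.114 to 0.0644 in 18 pairs and from -0.0871 to 0.159 in 36 others). Of the 12 libraries, 4 were closest to a library of their own letter. These values do not decide whether same-lettered libraries were prepared together. The fit with the replicate block called 21, 21, 1, 1 and 0 genes, against 6449, 4861, 2938, 547 and 912 over all tested genes. The interaction could not be fitted on the compared groups alone, since it needs all 4. The depth limits Derl3 and, among the wider lists, Fkbp14 and Chac1, whose levels rest on few counts.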

Other observations

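Further lists of ER genes, fixed by function, had not yet been described. The oligosaccharyltransferase attaches N-glycans to proteins as they enter the ER. All 11 of its tested subunits had negative log2 fold changes with ChREBPβ at both glucose concentrations, with medians of -0.23 and -0.19. Negative values were held by 7557 of the 14669 tested genes in 2 mM and by 7686 in 11 mM. Of these subunits 3 fell in 2 mM (27.3%), near the 23.2% of all tested genes, and 5 in 11 mM (45.5%), against 19.1%. Among them, named with their values known, Magt1 fell by 0.43 and 0.38 and Tusc3 by 0.42 and 0.28, both of them oxidoreductase subunits of the complex that carries the catalytic subunit Stt3b. Of 15 other ER oxidoreductases and prolyl isomerases, 6 fell (40%) and 2 rose in 2 mM and 5 fell (33.3%) and 1 rose in 11 mM, against falls of 23.2% and 19.1% and rises of 21% and 14.3% among all tested genes. Fkbp14, a prolyl isomerase, had the largest fall of the pathway lists in 2 mM (-1.44, edgeR adjusted p = 0.0325), at levels of 0.410 CPM ± 0.217 (SD, n = 3) with GFP and 0.143 CPM ± 0.0357 with ChREBPβ, where few counts lie behind a value. Ero1a, the more widely expressed relative of Ero1b, fell by 0.51 and 0.47.

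Of 9 genes of ER calcium handling, 3 fell (33.3%) and 0 rose at each concentration, against the same shares of the table, from which so short a list cannot be set apart. Those that fell at both were Itpr2, an inositol trisphosphate receptor (-0.93 and -0.58), and Sdf4, a luminal calcium-binding protein (-0.33 and -0.29). Atp2a3, a calcium pump of the β-cell ER, fell by 0.31 in 2 mM, and Itpr1 fell by 0.33 in 11 mM. With the β-cell markers counted in, the largest falls were those of the prohormone convertase Pcsk1 in 2 mM (-1.61) and of the transcription factor Nkx6-1 in 11 mM (-1.42).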
